A study of Mus musculus with 37 samples.

Results

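The within-mouse difference between the 2 cortical hemispheres was examined in astrocytes of mice that developed post-traumatic epilepsy (PTE+), as the ipsilateral minus the contralateral value of every gene in the same animal. The members were the PTE+ mice with a library from both hemispheres, named 8_10, 9_17 and 9_18 in the labels, which gave 6 of the 37 libraries and 3 of the 20 mice of the series. The study sequenced RNA of cortical astrocytes 4 months after a severe unilateral controlled cortical impact (CCI) over the right parietal cortex or after sham surgery. Seizures were scored from video EEG in the months before collection, and injured mice were divided into PTE+ and PTE− mice. The groups used here were PTE+ (3 mice with both hemispheres), PTE− mice, injured without seizures (9 mice), and sham mice (5 mice), all collected at the same time. All mice were wild type, of a line the labels call CD31 and the methods CD1, and carried recording electrodes, so craniectomy and electrodes were shared by sham and injured animals. The ipsilateral side of a sham mouse is the side of its craniectomy. The contralateral hemisphere of an injured mouse is not an uninjured brain, since seizures and diffuse effects of the impact can reach both sides.

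Astrocytes are the glial cells that clear glutamate and potassium, carry water through aquaporin channels at vessels and supply neurons with metabolites. After injury they become reactive, a state in which the intermediate filament protein GFAP accumulates and acute-phase, complement and chemokine genes are expressed. Cytokines of the interleukin-6 family, among them ciliary neurotrophic factor (CNTF), act on reactive astrocytes through the shared receptor chain gp130 and the transcription factor STAT3, which binds palindromic sites with the letters TTCNNNGAA.

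Expression was deposited as TPM, an abundance per length of transcript that is scaled to the total of each library. Differences are given as log2(TPM + 1) of the ipsilateral minus the contralateral library, on which the change of a gene at low TPM is understated. TPM keep no read depth, so depth is unknown here and no interval for counting error is given. The fit was limma, a linear model, on the 17 within-mouse differences of all 3 groups, which shared 1 estimate of the spread. Genes with a mean above 5 TPM in a group and hemisphere compared were tested. A gene was called when its unadjusted p was under 0.05 and its change at least 1.2-fold, the thresholds of the study.

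The 16 astrocyte markers on the list were all above 0 in the 6 PTE+ libraries and summed to 25100, 24370 and 23710 TPM contralaterally and 25720, 29090 and 30010 TPM ipsilaterally in mice 8_10, 9_17 and 9_18. Markers of other cells were present at lower sums, and the contralateral library of mouse 9_17 stood apart. Its 10 endothelial markers summed to 2902 TPM, above the 508.8 to 2208 TPM of the contralateral PTE− and sham libraries, and to 1073 TPM ipsilaterally. Its 10 ependymal and choroid plexus markers fell from 915.5 to 367.5 TPM, its 12 microglia markers from 473.8 to 234.6 TPM, and its 5 erythrocyte markers from 5086 to 1650 TPM. Those contralateral sums lay within the range of the contralateral PTE− and sham libraries, which reached 1173, 771 and 7729 TPM. In mouse 9_18 the 12 neuron markers fell from 999.2 to 433.6 TPM. In these bulk preparations fewer cells of a type and less RNA per cell cannot be told apart.

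**Figure D1:**
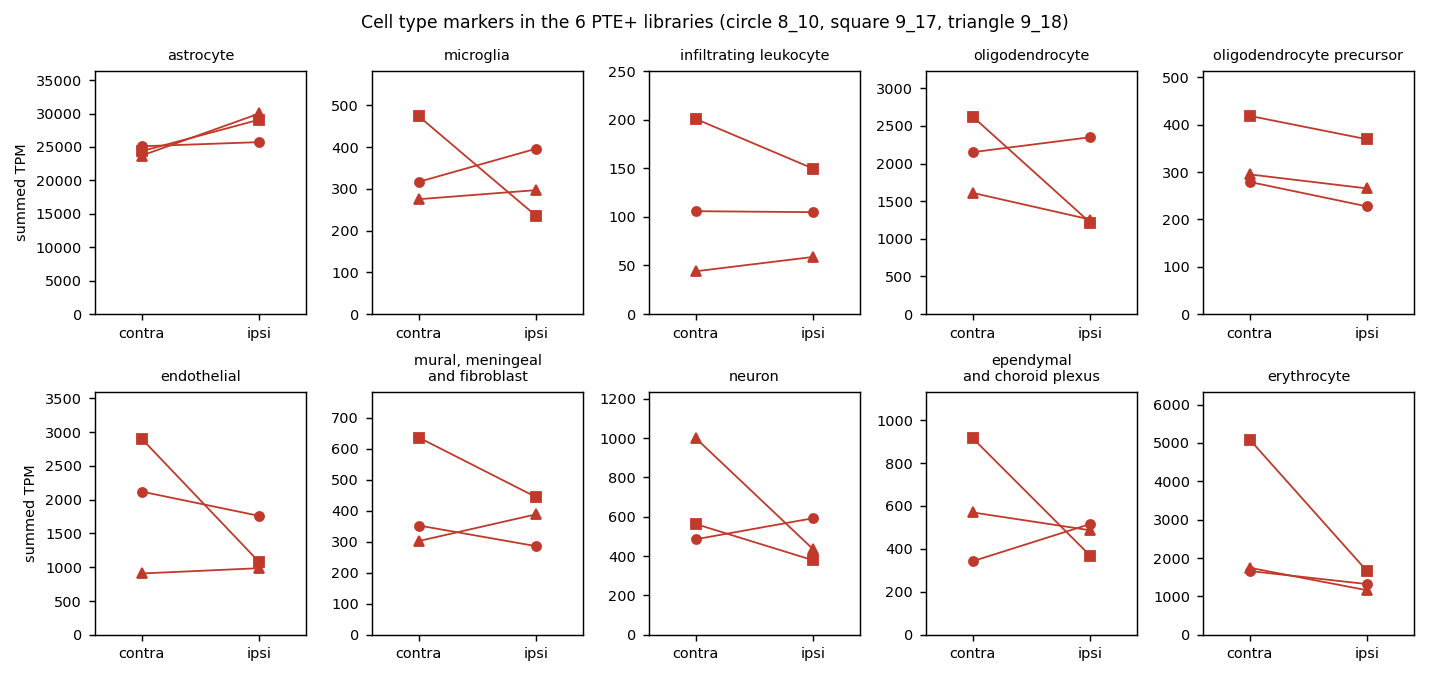
Summed TPM of the 10 cell type marker lists in the contralateral and ipsilateral library of each PTE+ mouse, with 1 line per mouse and each axis starting at 0. Astrocyte sums lie far above those of the other cell types, and the steepest falls in endothelial, microglia, ependymal and erythrocyte sums belong to mouse 9_17 (endothelial 2902 to 1073 TPM).

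Between the hemispheres of PTE+ mice, 283 of 10519 tested genes were called (2.69%), 94 higher on the ipsilateral side (0.894%) and 189 lower (1.8%). In limma 312 genes (2.97%) had an unadjusted p under 0.05, a smaller share than the 0.05 expected if no gene differed. After Benjamini-Hochberg adjustment 0 genes passed 0.05, and the smallest adjusted p was 0.999. The median difference of all tested genes was −0.01. Of the called genes, 238 had the same sign in 3 of 3 pairs (88 higher and 150 lower), which calling on the mean of the same differences favours. Of all tested genes 2253 (21.4%) had the same sign in 3 of 3 pairs, a smaller share than the 0.25 that random signs give. The share of called genes that were higher was 33.2%, and it depended on the scaling, at 57.4% of 336 calls after quantile normalization and 69% of 329 calls after centring each library on its median. The count also depended on single mice, with 652 genes called without mouse 8_10, 238 without 9_17 and 290 without 9_18, of which 213, 75 and 97 were among the 283. Of the 41 called genes named here, 8 (Cntf, Serpina3n, C4b, Gfap, Gria1, Rnf2, Klc2 and Gm11032) kept their call without each PTE+ mouse in turn, and 31 lost it without at least 1. Klf4 and Fermt3 fell under the level for testing when a PTE+ mouse was left out. Mouse names begin with 8 or 9, a prefix whose meaning is not given, and with it as a covariate 260 genes were called. With the spread of the 3 PTE+ pairs alone 406 genes were called, 173 of them among the 283, and 2 passed 0.05 after adjustment (limma, smallest adjusted p 0.00286). An exact test by flipping the signs of 3 differences cannot go below 0.25.

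**Figure D2:**
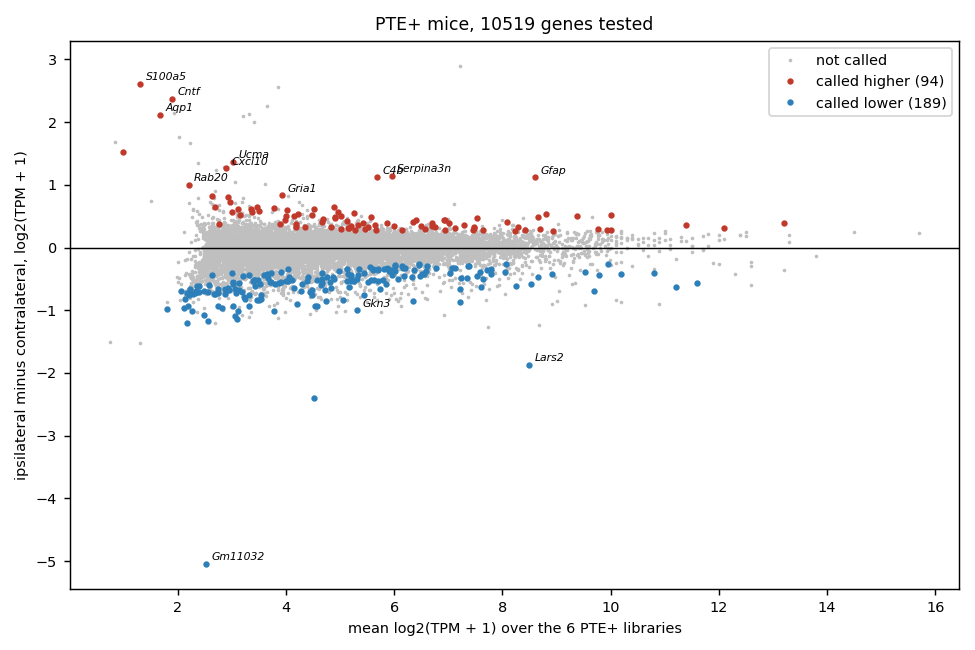
Ipsilateral minus contralateral difference of log2(TPM + 1) in PTE+ mice (vertical axis) against the mean log2(TPM + 1) over the 6 PTE+ libraries (horizontal axis), 1 point per tested gene. The 94 genes called higher are red and the 189 called lower are blue, with Gfap, Serpina3n and C4b the labelled genes at high levels among those above 0 and Lars2 the labelled one below 0.

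Gfap, Serpina3n and Cxcl10 of the reactive astrocyte list and C4b of the complement list were among the 10 highest called genes of 1 sign in 3 of 3 pairs. Gfap, the intermediate filament gene that defines reactive astrocytes (ENSMUSG00000020932, chromosome 11, positions 102887336 to 102900912 on GRCm38), was at 155.7, 339.85 and 339.47 TPM contralaterally and 421.68, 492.89 and 886.53 TPM ipsilaterally in mice 8_10, 9_17 and 9_18. Every ipsilateral value lay above every contralateral one. Mean Gfap was 278 ± 106 TPM contralaterally and 600 ± 250 TPM ipsilaterally (SD, n = 3), a 2.16-fold ratio of means, and the mean log2 difference was 1.12 with a standard error of 0.36 (limma, unadjusted p = 0.00521, adjusted p 0.999). Serpina3n, which encodes a secreted serine protease inhibitor of the acute phase (chromosome 12, positions 104406729 to 104414329), was at 35.8, 38.52 and 49.51 TPM contralaterally and 75.08, 72.86 and 139.86 TPM ipsilaterally. Its differences of 1.05, 0.90 and 1.48 were more even than those of Gfap, with a mean of 1.14 and a standard error of 0.27 (limma, unadjusted p = 0.000402). C4b, the complement component 4 gene (chromosome 17, positions 34728380 to 34743882), was at 19.81, 59.6 and 32.91 TPM contralaterally and 56.5, 61.32 and 120.3 TPM ipsilaterally. Its differences were 1.47 in 8_10, 1.84 in 9_18 and 0.04 in 9_17, with a mean of 1.12 and a standard error of 0.29 (limma, unadjusted p = 0.00122). Gfap is overlapped by Gm26668 on the opposite strand, and the library kit does not mark strand. The calls of Gfap, Serpina3n and C4b held without each PTE+ mouse in turn, with differences of 0.96 to 1.41, 0.98 to 1.26 and 0.75 to 1.65.

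Cxcl10, a chemokine induced by interferons (chromosome 5, positions 92346638 to 92348889), was at 4.19, 6.78 and 1.77 TPM contralaterally and 12.88, 10.17 and 9.0 TPM ipsilaterally. Art3 overlaps it on the opposite strand. Its groups did not overlap either, and its mean difference was 1.26 with a standard error of 0.42 (limma, unadjusted p = 0.00684), 0.97 and no longer called without 9_18. Aspg, an asparaginase gene used as a marker of reactive astrocytes, went from 9.92, 14.01 and 12.98 to 16.92, 17.92 and 22.26 TPM, a difference of 0.59 that lost its call without 8_10 (0.53) or 9_18 (0.52). Cd44, the hyaluronan receptor, went from 4.81, 7.8 and 3.37 to 5.69, 10.44 and 12.17 TPM, and its difference of 0.73 fell to 0.29 without 9_18, where it was not called. Of the 33 reactive astrocyte genes on the list 22 were tested, 5 were called higher (Gfap, Serpina3n, Cd44, Cxcl10 and Aspg) and 1 lower, Srgn, a proteoglycan gene of blood-derived and endothelial cells. Of all tested genes 0.894% were called higher and 1.8% lower. The median difference of the list was 0.24, and by mouse it was 0.27 in 8_10, −0.12 in 9_17 and 0.73 in 9_18. Without 9_18 the median of the list was −0.10, with 2 members called higher and 1 lower. Vim, the other main filament gene of reactive astrocytes, was at 67.22, 144.86 and 84.23 TPM contralaterally and 95.26, 100.52 and 153.77 TPM ipsilaterally and was not called (difference 0.28, limma, unadjusted p = 0.376). C3 had a difference of 1.0 and was not called (limma, unadjusted p = 0.0798), and Lcn2, at 0.61, 0.0 and 6.46 TPM ipsilaterally, did not reach the level for testing. Of the 18 complement genes 11 were tested and C4b alone was called.

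**Figure D3:**
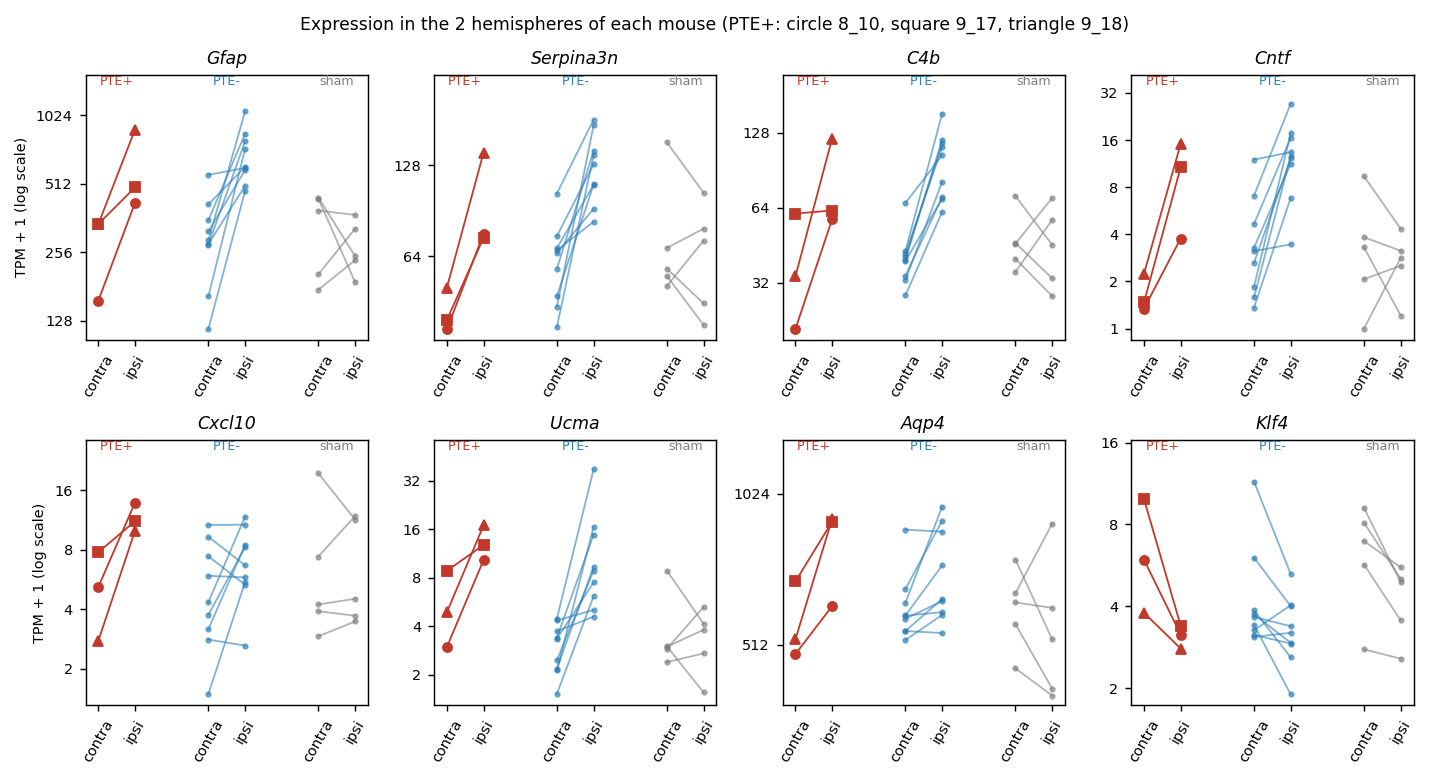
TPM + 1 on a log scale in the contralateral and ipsilateral library of each mouse for 8 genes, with 1 line per mouse, PTE+ in red, PTE− in blue and sham in grey. All 3 PTE+ lines rise for the first 7 genes and fall for Klf4, C4b is nearly level in mouse 9_17 (59.6 to 61.32 TPM), and PTE− lines rise for Gfap, Serpina3n, C4b, Cntf and Ucma in 9 of 9 mice.

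Cntf (ENSMUSG00000079415, chromosome 19, positions 12763660 to 12765632), the gene of a ligand of gp130, was low in every contralateral PTE+ library. Contralateral Cntf was at 0.34, 0.47 and 1.24 TPM and ipsilateral Cntf at 2.76, 9.73 and 14.14 TPM in 8_10, 9_17 and 9_18. The ratio of the means was 13, and the mean difference 2.37 with a standard error of 0.55 (limma, unadjusted p = 0.000365), at 2.12 to 2.81 and still called without each PTE+ mouse. With all libraries in the fit and the mouse as a random effect its adjusted p was 0.0483, the 1 gene under 0.05 in that fit, and 0.0892 after leaving out an ipsilateral PTE− library (9_14) with 10727 genes above 0 (limma). Cntf lies inside Zfp91 on the same strand, so reads could be divided between the 2 genes in the counting. Of the 20 CNTF and gp130 signalling genes 12 were tested and Cntf alone was called, with a median difference of 0.14 over the list, which was −0.12 without 9_18. The share of all tested genes called higher was 0.894%. Stat3 was at 48.58, 97.58 and 54.87 TPM contralaterally and 55.68, 90.72 and 88.27 TPM ipsilaterally (difference 0.26, limma, unadjusted p = 0.195). The receptor chain gene Il6st had a difference of 0.32 (limma, unadjusted p = 0.246).

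Since these genes share the ipsilateral increase, 4 of their promoter windows are shown, from 250 bases before to 50 bases after the RefSeq start on GRCm38.p6, 5′ to 3′ on the strand of the gene. Capitals mark TTCNNNGAA, the letters of STAT sites, and GAAANNGAA, letters found in interferon response elements. Both were searched on both strands, as was TATAAA, and the windows held no overlapping matches. TTCNNNGAA was in 8.3% of the 32851 windows of the same length, GAAANNGAA in 8.56% and TATAAA in 13.6%. The windows are chr11:102897151-102897450 (minus strand) for Gfap, chr12:104406458-104406757 (plus strand) for Serpina3n, chr19:12765583-12765882 (minus strand) for Cntf and chr5:92348840-92349139 (minus strand) for Cxcl10.
Gfap: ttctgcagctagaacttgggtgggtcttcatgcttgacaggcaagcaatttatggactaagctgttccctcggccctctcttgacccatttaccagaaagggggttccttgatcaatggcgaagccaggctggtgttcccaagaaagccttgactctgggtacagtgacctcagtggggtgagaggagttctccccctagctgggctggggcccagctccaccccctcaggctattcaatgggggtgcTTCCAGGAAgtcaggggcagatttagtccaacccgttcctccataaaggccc
Serpina3n: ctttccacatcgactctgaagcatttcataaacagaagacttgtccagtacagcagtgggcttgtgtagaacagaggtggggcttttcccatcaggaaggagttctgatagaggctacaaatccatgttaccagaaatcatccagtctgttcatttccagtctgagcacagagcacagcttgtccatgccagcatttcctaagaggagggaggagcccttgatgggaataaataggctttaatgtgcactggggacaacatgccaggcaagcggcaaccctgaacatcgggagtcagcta
Cntf: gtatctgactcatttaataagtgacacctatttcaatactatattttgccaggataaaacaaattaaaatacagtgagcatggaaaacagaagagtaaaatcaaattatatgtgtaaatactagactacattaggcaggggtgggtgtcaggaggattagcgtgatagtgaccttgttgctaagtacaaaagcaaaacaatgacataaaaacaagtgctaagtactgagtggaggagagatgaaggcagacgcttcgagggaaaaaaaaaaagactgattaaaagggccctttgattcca
Cxcl10: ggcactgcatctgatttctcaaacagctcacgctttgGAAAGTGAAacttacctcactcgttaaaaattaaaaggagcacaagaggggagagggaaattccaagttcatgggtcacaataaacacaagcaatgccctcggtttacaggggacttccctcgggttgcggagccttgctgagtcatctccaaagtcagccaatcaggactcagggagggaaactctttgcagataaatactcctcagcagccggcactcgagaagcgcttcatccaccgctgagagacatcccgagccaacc
The Gfap window held 1 match to TTCNNNGAA, which began 2 bases before the start, and the Cxcl10 window 1 match to GAAANNGAA, which began 213 bases before it. The Serpina3n and Cntf windows held no match to any of the 3 strings.

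Aqp4 and Mlc1, genes of astrocyte endfeet, and Ntsr2 were called higher. Aqp4, the water channel of astrocyte endfeet (ENSMUSG00000024411), was at 489.11, 683.23 and 523.59 TPM contralaterally and 610.03, 899.55 and 910.46 TPM ipsilaterally. Each mouse was higher on the injured side, by a mean of 0.50 with a standard error of 0.16 (limma, unadjusted p = 0.00422), and the call was lost without 9_18, at 0.36. Mlc1, a membrane protein gene of the same endfeet, went from 851.18, 936.18 and 871.39 to 976.29, 1031.25 and 1242.27 TPM, a difference of 0.28 that was 0.17 and not called without 9_18. These were the 2 calls, both higher, among 13 tested genes of potassium, water and endfeet, and without 9_18 the list held 0 calls and its median went from 0.12 to −0.08. Ntsr2, a neurotensin receptor gene highly expressed in astrocytes, went from 4333.35, 3489.67 and 3964.73 to 5114.94, 4338.1 and 5183.74 TPM. Its difference of 0.31 was no longer called without 9_17 (0.31) or 9_18 (0.28). Of the 16 astrocyte markers, all tested, 4 were called higher (Gfap, Aqp4, Ntsr2 and Mlc1) and 0 lower, with a median difference of 0.18 that was −0.08 in 8_10, 0.16 in 9_17 and 0.53 in 9_18. Of all tested genes 0.894% were called higher. The glutamate transporter genes Slc1a2 and Slc1a3 had differences of 0.14 and 0.27 and were not called (limma, unadjusted p = 0.307 and 0.101). Kcnj10, the potassium channel gene, and Glul, which encodes glutamine synthetase, had differences of 0.05 and −0.03 (limma, unadjusted p = 0.841 and 0.837).

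Further genes called higher had known roles outside these groups. Ucma, which encodes a matrix protein described in cartilage, was at 1.97, 7.83 and 3.88 TPM contralaterally and 9.3, 11.78 and 15.93 TPM ipsilaterally, with a mean difference of 1.37 that was 1.16 and not called without 8_10 or without 9_18. Aqp1, the water channel gene of choroid plexus, went from 0.37, 0.4 and 0.9 to 2.44, 10.1 and 6.89 TPM, while the summed ependymal and choroid plexus markers went from 342.8 to 516.1 TPM in 8_10, from 915.5 to 367.5 TPM in 9_17 and from 569.9 to 486.7 TPM in 9_18. Their part in the Aqp1 difference was not tested. The Aqp1 difference of 2.12 was 2.16 and not called without 9_18. S100a5, a calcium-binding protein gene, was listed at 0 in all 3 contralateral libraries and at 13.06, 0.31 and 11.39 TPM ipsilaterally, yet the unpaired contralateral PTE+ library held 50.46 TPM. Its call was lost without 8_10 (2.01) or 9_18 (2.10), and without any of the 5 sham mice, which leaves the difference of 2.61 as it is and changes only the shared spread. Gria1, an AMPA glutamate receptor subunit gene, went from 6.81, 11.89 and 13.9 to 14.45, 18.41 and 27.15 TPM, by 0.83, and kept its call without each PTE+ mouse, at 0.75 to 0.95. The small GTPase gene Rab20 went from 1.66, 4.01 and 1.57 to 4.05, 7.51 and 5.42 TPM, by 1.0, with no call without 8_10 (1.04) or 9_18 (0.85).

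Single members of 4 other lists were called higher, beside 0.894% of all tested genes. Agt, the angiotensinogen gene, went from 459.99, 382.99 and 294.3 to 581.93, 523.34 and 512.39 TPM and was the 1 call among 4 tested genes of astrocytes outside the telencephalon. Its difference of 0.53 was 0.39 and not called without 9_18. The heme oxygenase gene Hmox1 (27.6, 25.69 and 21.05 to 31.21, 32.02 and 30.01 TPM, difference 0.32) was the 1 call among 17 tested glutathione and NRF2 genes, lost without 9_17 (0.33) or 9_18 (0.24). The small heat shock protein gene Hspb8 (54.1, 48.56 and 65.04 to 58.59, 70.62 and 85.49 TPM, difference 0.34) was the 1 call among 17 heat shock chaperone genes, lost without 9_17 (0.25) or 9_18 (0.32) and without sham mice 8_15, 8_16, 9_9 or 9_10, which leave its difference as it is. Ptprz1, a receptor phosphatase gene of the glial matrix, had a difference of 0.39 that came mostly from 9_18 and was 0.08 and not called without it. It was the 1 call among 16 tested matrix and scar genes.

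**Figure D4:**
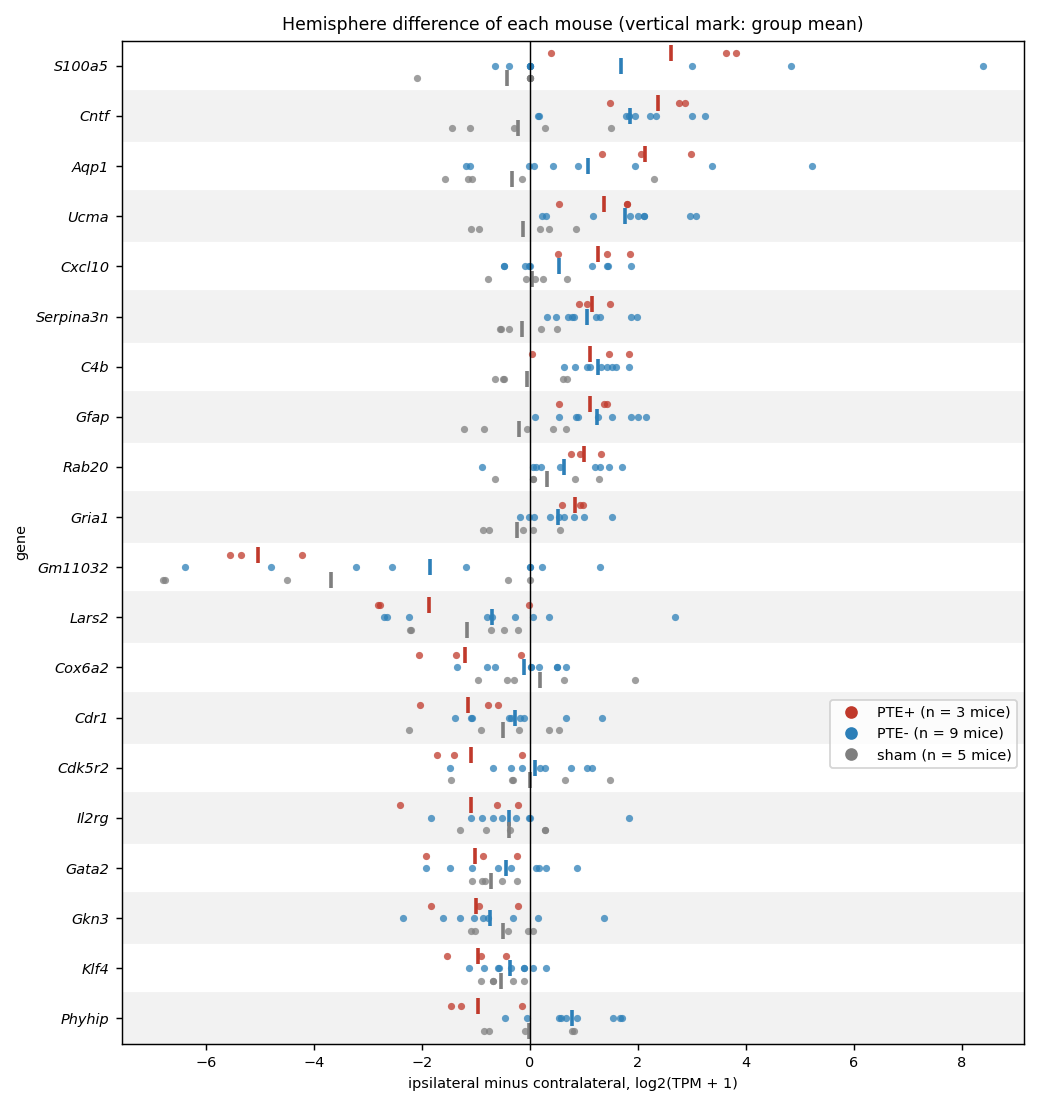
Ipsilateral minus contralateral difference of log2(TPM + 1) of each mouse (horizontal axis) for 10 genes called higher and 10 called lower, those farthest from 0 on each side among genes of 1 sign in 3 of 3 PTE+ pairs, with 1 point per mouse and a vertical mark at the group mean. PTE+ mice (n = 3) are red, PTE− mice (n = 9) blue and sham mice (n = 5) grey. The PTE− points of Gfap, Serpina3n, C4b, Cntf and Ucma lie above 0 like the PTE+ points, while for Gm11032 the sham and PTE− points extend below the PTE+ ones.

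Genes called lower included Gm11032 and Lars2. Gm11032, a predicted gene (chromosome 11, positions 4620067 to 4621698, overlapped by Gm11961 on the opposite strand), was at 39.75, 45.76 and 17.69 TPM contralaterally and was listed at 0 in the 3 paired ipsilateral libraries. In sham mice the median level was 89.8 TPM contralaterally and 0.0 TPM ipsilaterally. The unpaired PTE+ libraries of both hemispheres were listed at 0 as well. Lars2, which encodes the mitochondrial leucyl-tRNA synthetase, was at 204.82, 1131.08 and 1389.47 TPM contralaterally and 201.4, 164.41 and 197.93 TPM ipsilaterally. The high values were those of the contralateral libraries of 9_17 and 9_18, and without either mouse the difference of −1.87 became −1.41 or −1.40 and was not called. Contralateral PTE− libraries spanned 27.39 to 2254.19 TPM for Lars2. Lars2 was also lower ipsilaterally in every sham mouse, with differences from −2.22 to −0.22, and PTE− differences ran from −2.7 to 2.69.

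Of 19 tested immediate early genes, which are transcribed within minutes of stimulation, 2 were called lower ipsilaterally and 0 higher. Of all tested genes 1.8% were called lower and 0.894% higher. Without 9_17 the list held 0 calls among 18 tested genes. The median difference of the list was −0.42 (−0.36 in 8_10, −0.53 in 9_17 and −0.13 in 9_18), and 18 of the 19 had a mean below 0. The median over all tested genes was −0.01. Klf4, a Krüppel-like transcription factor gene, was at 4.94, 8.92 and 2.79 TPM contralaterally and 2.15, 2.4 and 1.8 TPM ipsilaterally, and every ipsilateral value lay below every contralateral one. Its difference was −0.97 with a standard error of 0.28 (limma, unadjusted p = 0.00231), and −0.99 and −1.23 without 8_10 and 9_18. Klf4 was also lower ipsilaterally in every sham mouse, with differences from −0.91 to −0.11, and PTE− differences ran from −1.13 to 0.305. Klf2, a flow-responsive factor of endothelium, was at 30.35, 61.39 and 17.38 TPM contralaterally and 17.35, 16.57 and 15.03 TPM ipsilaterally, a difference of −0.93 that was −0.49 and not called without 9_17. Fos (47.58, 26.15 and 21.29 to 17.62, 23.73 and 24.85 TPM) and Egr1 (9.14, 13.94 and 11.11 to 5.78, 7.18 and 7.59 TPM) were not called (limma, unadjusted p = 0.408 and 0.197). In sham mice the median of the list was −0.15 and in PTE− mice −0.11.

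Gata2, Gkn3, Il2rg and Srgn, all called lower, are known from endothelial or blood cells. Gata2, a transcription factor gene of endothelium and blood progenitors, went from 12.02, 25.64 and 4.37 to 6.12, 6.0 and 3.55 TPM. Gkn3, a gene expressed in arterial endothelium of the brain, went from 63.13, 112.61 and 24.03 to 32.35, 30.74 and 20.42 TPM. Il2rg, the common gamma chain of cytokine receptors on leukocytes, went from 7.14, 12.86 and 3.84 to 4.31, 1.61 and 3.13 TPM, and Srgn from 43.46, 71.45 and 26.94 to 35.18, 28.3 and 22.16 TPM. In each the largest fall was in 9_17, and without that mouse Gata2 (−0.56), Gkn3 (−0.58), Il2rg (−0.42) and Srgn (−0.28) were not called, nor was Gkn3 without 8_10 (−1.03). Summed endothelial markers ran from 2120, 2902 and 908 TPM contralaterally to 1760, 1073 and 986.2 TPM ipsilaterally, and summed microglia markers from 316.9, 473.8 and 275.2 to 396.4, 234.6 and 297 TPM. The median difference of the 9 tested endothelial markers was −0.53, with 0 called, and their part in these differences, and in those of Klf2 and Klf4, was not tested. Sham differences ran from −1.08 to −0.25 for Gata2, −1.09 to 0.05 for Gkn3, −1.29 to 0.28 for Il2rg and −1.61 to 0.44 for Srgn. PTE− differences ran from −1.92 to 0.88 for Gata2, −2.36 to 1.38 for Gkn3, −1.83 to 1.84 for Il2rg and −0.74 to 0.52 for Srgn.

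Among the other lowest called genes were Cdk5r2, Cdr1, Phyhip and Cox6a2. Cdk5r2, an activator of the neuronal kinase CDK5, went from 8.35, 8.13 and 20.36 to 7.46, 2.46 and 5.43 TPM. Cdr1, an X-linked gene transcribed in neurons, went from 9.93, 7.1 and 21.9 to 6.22, 3.7 and 4.57 TPM. Phyhip, a gene of unclear function expressed in brain, went from 5.4, 12.24 and 10.44 to 4.75, 3.82 and 3.7 TPM, and Cox6a2, the cytochrome oxidase subunit gene of muscle, from 4.28, 7.19 and 6.33 to 3.72, 0.96 and 1.84 TPM. The differences of Cdk5r2 (−1.09), Phyhip (−0.97) and Cox6a2 (−1.20) were −0.94, −0.72 and −0.77 without 9_17 and −0.77, −0.81 and −1.11 without 9_18, and none of these was called. That of Cdr1 (−1.14) was −0.69 and not called without 9_18. Cdr1 is overlapped by C230004F18Rik on the opposite strand. Summed neuron markers went from 485.4, 562.9 and 999.2 to 592.7, 378.2 and 433.6 TPM, with 0 of 11 tested called and a median difference of −0.53, and their part was not tested. Ccnd1, the cyclin D1 gene, was the 1 call among 4 tested proliferation genes, at −0.58, and was not called without 8_10 (−0.63), 9_17 (−0.47), 9_18 (−0.63) or sham mouse 9_9 (−0.58). The share of all tested genes called lower was 1.8%.

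**Figure D5:**
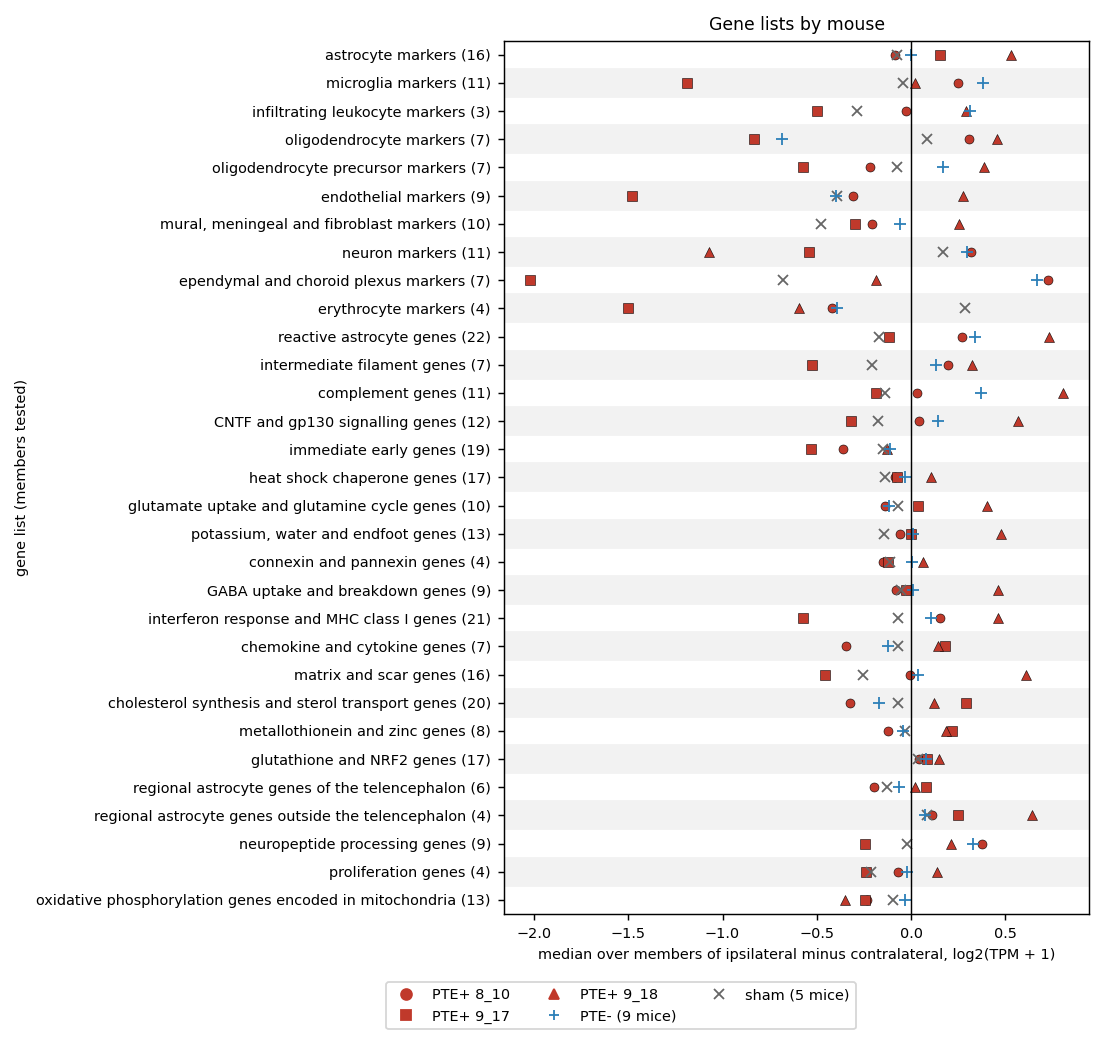
Median over the tested members of each of 31 gene lists of the ipsilateral minus contralateral difference of log2(TPM + 1) (horizontal axis), with the number tested in brackets. Red symbols are the 3 PTE+ mice, and crosses are medians of mean differences over PTE− and sham mice. The spread between the PTE+ mice is widest for ependymal (0.73 to −2.02) and endothelial (0.28 to −1.48) markers, and mouse 9_18 is the highest of the 3 for reactive, complement and gp130 genes.

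Across the lists the 3 animals differed from each other. Mouse 9_18 had the highest list median for reactive astrocyte (0.73), complement (0.81), gp130 (0.57) and matrix and scar genes (0.61), and mouse 9_17 the lowest for the same lists (−0.12, −0.19, −0.32 and −0.46). The 21 tested interferon response and MHC class I genes had medians of 0.15, −0.57 and 0.46 in 8_10, 9_17 and 9_18, with 0 called. The 13 oxidative phosphorylation genes encoded in mitochondria were lower ipsilaterally in 3 of 3 mice for 10 members, with list medians of −0.23, −0.24 and −0.35 and 0 called. Sham mice spanned −1.94 to 0.70 on the same list. The 20 tested cholesterol genes (median 0.08), 8 metallothionein and zinc genes (0.11), 9 GABA genes (0.10), 4 connexin and pannexin genes (−0.02) and 9 neuropeptide processing genes (−0.07) held 0 calls. Nor was there a call among the 11 microglia, 7 oligodendrocyte, 7 oligodendrocyte precursor, 10 mural and meningeal, 7 ependymal, 3 leukocyte and 4 erythrocyte markers tested, or the 6 genes of telencephalic astrocytes. The 7 intermediate filament and 7 chemokine and cytokine genes tested held 1 call each, Gfap and Cxcl10. Of 58 measured genes that the study names in its text, 48 were tested and 3 were called, beside 2.69% of all tested genes. The 3 were Cntf and Ucma, given above, and Cd34, an endothelial gene with a difference of −0.76. The study named these genes from results of the same series of libraries.

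The difference between hemispheres in PTE+ mice was next set against that in sham mice, which asks how much of it goes beyond the side of craniectomy. Of 10811 tested genes 395 were called (3.65%), 317 with a higher PTE+ difference (2.93%) and 78 with a lower one (0.721%). In limma 397 genes (3.67%) had an unadjusted p under 0.05, again a smaller share than expected if no gene differed. After adjustment 0 genes passed 0.05, with a smallest adjusted p of 0.965. The median over all tested genes was 0.08, and the share of calls with a higher PTE+ difference, 80.3%, was 65.1% after quantile normalization and 53.3% after median centring. The count was 106 without mouse 9_18 and 796 without 8_10, and 793 without sham mouse 9_11. PTE+ and sham differences did not overlap for 217 genes (2.01%), of which 108 were called, 96 higher and 12 lower. Random assignment of the mice to these groups gives no overlap at a share of 0.0357, which is above 2.01%.

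Serpina3n stood out among the reactive genes in this contrast. Its sham differences ran from −0.55 to 0.50 with a median of −0.38, below all 3 PTE+ values, and the contrast was 1.3 (limma, unadjusted p = 0.00114). Over the 56 possible splits of the 8 mice the exact two-sided permutation p was 0.0357, the smallest that can be reached and fixed by the lack of overlap for which the gene was chosen, and 1.13 to 1.42 remained without each PTE+ mouse. Sham Gfap differences ran from −1.22 to 0.67, those of Cntf from −1.45 to 1.5 and those of C4b from −0.65 to 0.70. The contrasts of Gfap (1.32), Cntf (2.58) and C4b (1.18) were called (limma, unadjusted p = 0.00817, 0.00149 and 0.00516), and the exact permutation p-values were 0.0714, 0.0714 and 0.107. Aqp4 (0.65), Mlc1 (0.31), Gria1 (1.06), Cxcl10 (1.23), Ucma (1.51), Aspg (0.80) and Hspb8 (0.44) were also called with a higher PTE+ difference. In the contrast Slc1a3 (0.44) and Gja1 (0.46), the connexin 43 gene, were called as well, though neither was called within PTE+ mice.

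Besides Serpina3n, the largest contrasts of called genes without overlap belonged to Gm20390 (2.75), Bace2 (1.37), Sema3b (1.16) and Arhgef16 (1.13). Bace2, a homologue of the beta-secretase of amyloid precursor protein, differed by 0.44 in PTE+ mice (5.25, 11.32 and 6.21 to 6.3, 12.41 and 13.12 TPM) and by −0.93 ± 0.65 in sham mice (SD, n = 5), so the contrast was formed on both sides. Gm20390 is a readthrough annotation across Nme1 and Nme2, and its level shares reads with both. Sema3b, a secreted semaphorin gene, went from 2.06, 5.95 and 5.1 to 3.72, 9.09 and 9.09 TPM. The calls of Bace2 (1.10), Sema3b (1.11), Arhgef16 (1.08) and Gm20390 (2.92) were lost without 9_18, that of Arhgef16 also without 9_17 (1.09) and that of Gm20390 also without 8_10 (2.02). Gm20390 also lost its call without sham mice 8_15 (2.58), 9_10 (2.89) or 9_11 (2.30), and Bace2 without 9_10 (1.09). Among called genes without overlap the lowest contrasts were Xkr8 (−1.06), a phospholipid scramblase gene, Fermt3 (−1.03), the kindlin gene of blood cells, overlapped by Trpt1 on the opposite strand, Tonsl (−0.93), a gene of replication fork repair, Polm (−0.81), a DNA polymerase gene, and Zfr2 (−0.67). Xkr8 went from 6.41, 5.9 and 4.28 to 3.66, 4.28 and 2.08 TPM in PTE+ mice and was higher on the ipsilateral side in 5 of 5 sham mice. Polm was not called without 8_10 (−0.75), without 9_17 (−0.75) or without sham mouse 8_16 (−0.61), and Tonsl not without 9_17 (−0.72). Each of these 9 genes had an exact permutation p of 0.0357, which the choice of genes without overlap fixes.

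Against PTE− mice the comparison asks how the hemispheres of injured animals differ with the development of epilepsy. Of 10683 tested genes 281 were called (2.63%), 94 with a higher PTE+ difference (0.88%) and 187 with a lower one (1.75%). In limma 283 genes (2.65%) had an unadjusted p under 0.05, also a smaller share than expected if no gene differed. After adjustment in limma 0 genes passed 0.05, with a smallest adjusted p of 0.999. The share of higher calls was 33.5%, 62.7% after quantile normalization and 71.7% after median centring. The count was 803 without 8_10 and 113 without 9_17. The reactive genes called within PTE+ mice were not called in this contrast. Ipsilateral Gfap was higher in 9 of 9 PTE− mice, by 1.25 ± 0.70 (SD, n = 9), and the contrast was −0.13 (limma, unadjusted p = 0.754). The same held for Serpina3n (1.05 ± 0.59 in PTE− mice, contrast 0.09), C4b (1.26 ± 0.38, contrast −0.14), Ucma (1.76 ± 1.02, contrast −0.38) and Cntf (1.85 ± 1.09, contrast 0.52), each higher ipsilaterally in 9 of 9 PTE− mice. The standard errors of these contrasts were 0.41 for Gfap, 0.31 for Serpina3n, 0.34 for C4b, 0.57 for Ucma and 0.64 for Cntf, so contrasts of this size were not detectable.

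PTE+ and PTE− differences did not overlap for 34 of the tested genes (0.318%), of which 26 were called, 13 higher and 13 lower. Random assignment of the mice to these groups gives no overlap at a share of 0.00909, which is above 0.318%. Klc2, a kinesin light chain gene, was at 5.29, 10.97 and 9.62 TPM contralaterally and 3.93, 3.49 and 4.27 TPM ipsilaterally in PTE+ mice, and every ipsilateral value lay below every contralateral one. AC124502.1 overlaps it on the opposite strand. Its difference was −0.93 in PTE+ and 0.27 ± 0.36 in PTE− mice (SD, n = 9), and the contrast of −1.19 (limma, unadjusted p = 0.000405) stayed called without each PTE+ mouse, at −0.95 to −1.48. The exact two-sided permutation p over 220 splits was 0.00909, the smallest that can be reached. The other lowest contrasts among called genes without overlap were Slc47a1 (−2.18), an organic cation exporter gene of meninges and kidney, Plppr3 (−1.19), a neuronal membrane protein gene, Fermt3 (−0.95) and Sema6b (−0.87). Slc47a1 went from 4.06, 12.36 and 1.91 to 3.97, 6.31 and 0.93 TPM in PTE+ mice, where it was not called, and was higher ipsilaterally in 8 of 9 PTE− mice. Its contrast was −2.0 and not called without 9_17, and the call was also lost without 9_18. The summed mural, meningeal and fibroblast markers, on whose list it stands, were 352.7, 636.7 and 302.6 TPM contralaterally and 285.9, 443.9 and 389 TPM ipsilaterally, and their part was not tested. Plppr3 lost its call without 9_17 (−0.75) and Sema6b without 9_18 (−0.79).

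Among called genes without overlap the highest contrasts with PTE− mice were Birc6 (0.71), Taco1 (0.70), Rnf2 (0.59), Tmem116 (0.56) and Coq6 (0.47). Birc6 encodes a large inhibitor of apoptosis, Taco1 a translational activator of cytochrome oxidase, Rnf2 a Polycomb ubiquitin ligase and Coq6 an enzyme of coenzyme Q synthesis. Rnf2 was at 13.11, 22.42 and 18.85 TPM contralaterally and 19.69, 31.58 and 27.24 TPM ipsilaterally, with a PTE+ difference of 0.51 (limma, unadjusted p = 0.00501), and its contrast held without each PTE+ mouse at 0.57 to 0.61. Its locus overlaps Trmt1l on the opposite strand, Taco1 overlaps Taco1os, Coq6 overlaps Fam161b and Tmem116 overlaps Erp29, and without strand their reads cannot be told apart where they overlap. Coq6 went from 26.58, 31.91 and 29.61 to 36.58, 42.18 and 40.22 TPM, and its contrast of 0.45 to 0.48 was not called once any PTE+ mouse was left out. Birc6 lost its call without 9_18 (0.57), Taco1 without 9_17 (0.55), and Tmem116 without 8_10 (0.51) or 9_18 (0.49). All 10 genes had an exact permutation p of 0.00909, which the choice without overlap fixes. The contrasts with sham and with PTE− mice share the 3 PTE+ mice and are not independent of each other.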

How the data were processed

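Cortical astrocytes were isolated by the authors with ACSA-2 MicroBeads, libraries were made with the SMART-Seq v4 kit, which does not mark strand, and reads were trimmed with Trim Galore 0.6.4 and quantified on mm10 with RSEM 1.2.28 and Bowtie2 2.4.1. The deposited values are TPM per Ensembl gene, in 1 table per hemisphere with the same 21975 genes. The authors tested counts with DESeq2 1.36.0. TPM are not counts and hold no depth, so log2(TPM + 1) was used here with limma 3.58.1 in R 4.3.3. The annotation release is not given in the sources used here, and symbols and positions came from GENCODE vM21 on GRCm38 (21856 genes matched, 119 not).

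Libraries were paired by the mouse named in the labels. Over 10519 genes the deviations of the 2 hemispheres from their group means correlated at 0.193, 0.373 and 0.328 in PTE+ mice 8_10, 9_17 and 9_18. Genes with a mean above 5 TPM were kept, the pseudocount was 1, and group means of the 17 differences were fitted with a variance trend on expression and Benjamini-Hochberg adjustment. Exact permutation tests used scipy 1.17.1. Alternatives were the pseudocount, filter, scaling, weights, spread, pairing, covariate, fold and single mice, and the fits were tested on simulated data. Whether the mice of a group shared a litter is not given. The limma p-values set each difference against the spread between mice, which was shared by all 3 groups and so is not that of the PTE+ mice alone.

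The mice, the gene lists and the tests were chosen with earlier results of these data known. Genes named are the 10 highest and 10 lowest called genes of 1 sign in 3 of 3 pairs, the 5 highest and 5 lowest called genes without overlap in each contrast, called and defining members of the lists, and genes the study names. One called gene of the rule is not reported here and was left out of its list and of the counts of named genes and list members, but not of the fits. A gene outside this rule is said to be chosen after its values were seen.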

Additional observations from a re-analysis of the deposited data

Results flagged for a closer look

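Among 100 sets of within-mouse differences of named genes in PTE− and sham mice, 10 held 1 mouse far from the rest of its group by Dixon's criterion, which chance meets in about 1 in 20. On the log2(TPM + 1) scale, ipsilateral minus contralateral, mouse 8_14 was such a PTE− mouse for Birc6 (−0.73) and Xkr8 (−0.67), mouse 9_12 for Klc2 (1.11) and mouse 9_20 for Il2rg (1.84). In sham mice it was 8_15 for Taco1 (−0.75) and Birc6 (−1.19), 8_16 for Polm (1.11), 9_9 for S100a5 (−2.10), 9_10 for Bace2 (−2.05) and 9_11 for Sema3b (0.42). Groups of 3, the PTE+ mice among them, were not examined in this way.

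For 43 contrasts of the 50 named genes the hemisphere difference of PTE+ mice was called different from that of another group (limma, unadjusted p under 0.05 and at least 1.2-fold, with 0 genes past the adjusted threshold). Part of these genes were named because they were called in these contrasts, so the count is not a result about them. Over all tested genes 3.65% were called against sham and 2.63% against PTE− mice. Against sham mice the difference was higher in PTE+ mice for Gfap (1.32), Serpina3n (1.3), C4b (1.18), Cntf (2.58), Cxcl10 (1.23), Aspg (0.80), Aqp4 (0.65), Mlc1 (0.31), Hspb8 (0.44) and Ptprz1 (0.65). It was also higher for Aqp1 (2.45), Gria1 (1.06), Ucma (1.51), Arhgef16 (1.13), Bace2 (1.37), Sema3b (1.16), Gm20390 (2.75), Birc6 (0.91), Taco1 (0.66) and Rnf2 (0.63). It was lower for Cox6a2 (−1.38), Xkr8 (−1.06), Fermt3 (−1.03), Tonsl (−0.93), Polm (−0.81), Klc2 (−0.75) and Zfr2 (−0.67).

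Against PTE− mice the difference was higher for Birc6 (0.71), Taco1 (0.70), Rnf2 (0.59), Tmem116 (0.56) and Coq6 (0.47). It was lower for Gm11032 (−3.19), Slc47a1 (−2.18), Phyhip (−1.75), Klc2 (−1.19), Plppr3 (−1.19), Cdk5r2 (−1.18), Fermt3 (−0.95), Sema6b (−0.87), Polm (−0.86), Xkr8 (−0.83) and Zfr2 (−0.68).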

How the results depend on the processing

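Of 1310 values of named genes under the alternatives 0 changed sign and 180 lost the call. Of the list medians, which were not chosen in this way, 63 of 651 changed sign, in 23 of 31 lists, 29 of them when a PTE+ mouse was left out. Without 9_18 the medians of reactive (−0.10), complement (−0.15), gp130 (−0.12) and matrix and scar genes (−0.06) were below 0, and without 9_17 those of microglia (0.18) and ependymal and choroid plexus markers (0.18) were above 0. Of the 61 results of named genes, 10 lost no call under the alternatives that gave a value. The counts of called genes for the PTE+ hemispheres, the contrast with sham and the contrast with PTE− mice (283, 395 and 281) became 104, 186 and 136 at a 1.5-fold threshold and 492, 690 and 536 with no filter other than a mean above 0 TPM. Without pairing the hemispheres by mouse (no replicate block) they were 73, 41 and 61. Leaving out 1 mouse gave 238 to 652, 106 to 796 and 113 to 803, the highest each without PTE+ mouse 8_10. The other alternatives stayed within 1.5 times of these counts. That set includes the random-effect fit without ipsilateral PTE− library 9_14, chosen after seeing the data, with 310, 562 and 211 calls. After adjustment 2 genes of the PTE+ comparison passed 0.05 with the spread of the PTE+ pairs alone (limma, smallest adjusted p 0.00286) and 1, Cntf, in the random-effect fit, against 0 in the other fits run and 0 in both contrasts. TPM hold no depth, so the counting error of low genes is unknown.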

Other observations

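Npy, the gene of neuropeptide Y (chromosome 6, positions 49822710 to 49829507), is given here because of its values, which were seen first. It was at 49.85, 53.08 and 58.6 TPM contralaterally and 253.55, 474.12 and 560.02 TPM ipsilaterally in mice 8_10, 9_17 and 9_18, a 7.97-fold ratio of means with no overlap between the hemispheres. It was not called, with a mean difference of 2.90 and a standard error of 1.48 (limma, unadjusted p = 0.0646), since the shared spread includes PTE− differences from −1.67 to 6.99 and sham differences from −3.48 to 4.29. The unpaired PTE+ libraries went the other way, at 836.22 TPM in the contralateral library of 8_17 and 31.13 TPM in the ipsilateral library of 9_19.

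Both PTE+ libraries without a partner stand outside the paired fit, and they come from different mice. Gfap was at 138.8 TPM in the contralateral library of 8_17 and 970.29 TPM in the ipsilateral library of 9_19, Serpina3n at 75.73 and 145.65 TPM, C4b at 27.91 and 149.23 TPM and Cntf at 0.16 and 14.94 TPM. Cxcl10 was at 3.91 and 9.58 TPM, Ucma at 1.98 and 24.22 TPM, Aqp4 at 636.6 and 824.62 TPM and Klf4 at 4.07 and 1.68 TPM. Aqp1 (4.74 and 0.78 TPM) and S100a5 (50.46 and 0.0 TPM), called higher ipsilaterally in the pairs, were at the lower level in the ipsilateral library. Klc2 (4.43 and 4.72 TPM) and Lars2 (180.96 and 213.69 TPM), called lower in the pairs, were at similar levels in both.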
